A study of Homo sapiens with 6 samples.

Results

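Annexins and S100 proteins are calcium-responsive proteins that act at membranes, and the deposited gene list held 30 of their genes, 12 annexins and 18 S100 genes, among 47470 genes in all. The members were taken by symbol alone, as ANXA or S100A followed by a number, with S100B, S100P and S100Z added. Strand-specific mRNA libraries were made from HEK293T, an established line of human embryonic kidney origin with the large T antigen of SV40. The cells were either untreated (3 libraries) or had valproic acid (VPA), which blocks histone deacetylases, at 1 mM for 1 day (3 libraries). The labels name no vehicle for the untreated cells and no genetic change in either group, and whether the libraries of a group came from separate cultures is not stated, so that p-values measure the spread between these libraries, which may be technical. The comparison asks which of these genes changed their RNA level in treated cells.

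Annexins bind phospholipid membranes in the presence of calcium through a conserved core of repeats, and their variable N-terminal tails bind partners. S100 proteins are small dimers with paired EF-hands, the helix-loop-helix fold that holds calcium, and several of them dock onto annexin tails. S100A10 with ANXA2 and S100A11 with ANXA1 are the best known of these complexes, and they are known for roles in membrane repair, endosome traffic and exocytosis. Most genes of the S100A group lie in a cluster on chromosome 1, while annexin genes are spread over many chromosomes.

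Of the 30 members, 12 passed the filter on low counts (about 10 counts in at least 3 libraries) and were tested, 10 had some counts but too few to be tested, and 8 are listed at 0 in all 6 libraries. ANXA3, S100A11, S100A4 and ANXA1 were up-regulated in VPA-treated cells, between 2.04-fold and 3.22-fold. Up-regulation means a log2 fold change of at least 1 with an adjusted p under 0.05 in the edgeR quasi-likelihood test, and 12.0% of all 15298 tested genes met that rule. No member was down-regulated by the mirrored rule, which 0.503% of all tested genes met. At the adjusted p alone 9 of the 12 tested members were higher and 1, ANXA7, was lower, against 32.9% and 30.0% of all tested genes. Small shifts hang on the scaling between libraries, since the higher genes were 52.3% of those past the adjusted p with the main scaling, 63.0% with upper quartile scaling and 73.9% with library totals, which put the median over all tested genes at 0.137. The median log2 fold change was 0.42 over the 12 members, 0.34 over the 8 tested annexins and 0.80 over the 4 tested S100 genes, beside 0.0058 over all tested genes. S100A4 passed the filter through its VPA-treated libraries, with 1 of 3 untreated libraries past it, and the other 11 passed in all 6. Without S100A4 the median was 0.31 over the 11 members and 0.31 over the 3 S100 genes.

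The libraries were close in depth, with 18622267 to 18828495 counts on genes each. Genes with at least 1 count numbered 20719 to 20916 in untreated and 22279 to 22425 in VPA-treated libraries. Markers of kidney epithelium were present, with CDH1, EPCAM, KRT8, KRT18 and PAX2 tested and PAX8 at 0 in every untreated library. Their summed level was 1565 to 1740 normalized counts in untreated and 2915 to 3112 in VPA-treated libraries. Of the 5 tested 4 (CDH1, KRT8, PAX2 and EPCAM) were up-regulated, against 12.0% of all tested genes. Normalized counts are scaled by TMM, a trimmed mean of the log ratios between libraries, to the mean library. In bulk RNA a change in the share of cells that express a gene and a change in RNA per cell cannot be told apart.

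The sequence before the start site is shown for the 4 up-regulated members, to set genes that moved in one direction side by side. The 120 bases before the annotated start are given 5′ to 3′ on the gene's strand, from RefSeq on GRCh38.p14, with every CG pair and the letters TATAAA in capitals.
ANXA3 (chromosome 4, 78551650 to 78551769, plus strand): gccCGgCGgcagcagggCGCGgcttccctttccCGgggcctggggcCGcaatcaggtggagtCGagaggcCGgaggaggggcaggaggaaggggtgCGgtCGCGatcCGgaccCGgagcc
S100A11 (chromosome 1, 152037005 to 152037124, minus strand): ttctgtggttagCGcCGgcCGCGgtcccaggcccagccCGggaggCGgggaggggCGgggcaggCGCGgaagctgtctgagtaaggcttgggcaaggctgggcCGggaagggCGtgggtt
S100A4 (chromosome 1, 153545807 to 153545926, minus strand): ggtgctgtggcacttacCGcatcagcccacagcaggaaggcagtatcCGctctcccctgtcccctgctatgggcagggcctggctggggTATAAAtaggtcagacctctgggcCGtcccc
ANXA1 (chromosome 9, 73151745 to 73151864, plus strand): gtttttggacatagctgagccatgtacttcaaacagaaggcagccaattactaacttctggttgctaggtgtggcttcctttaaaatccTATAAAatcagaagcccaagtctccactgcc

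The 4 sequences fell into unlike kinds. ANXA3 held 13 CG pairs in these 120 bases and S100A11 held 11, without the letters TATAAA. S100A4 held 3 and ANXA1 held 0, and in both TATAAA began 31 bases before the start, where a TATA box lies in promoters that have one. Members that were up-regulated thus included genes with CG-rich and with CG-poor sequence before their starts.

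ANXA3, a less studied annexin found in granulocytes and many epithelia, had the largest change of the tested members. It lies on chromosome 4 from 78551770 to 78610447. Untreated cells had 45.5, 61.7 and 60.8 normalized counts, and cells with VPA had 162, 186 and 194. All treated libraries were above all untreated ones, by far more than the spread within either group. The means were 56.0 ± 9.11 and 181 ± 16.8 (SD, n = 3 each), which gave a log2 fold change of 1.69 (SE 0.13) with an adjusted p of 3.20e-10 by edgeR.

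ANXA1, which limits inflammation through formyl peptide receptors and is a classical glucocorticoid target, was at a like low level. It lies on chromosome 9 from 73151865 to 73170393. Untreated libraries had 59.0, 76.3 and 76.6 normalized counts and VPA-treated libraries 136, 146 and 149. The groups did not overlap. The log2 fold change of 1.03 (SE 0.12, adjusted p of 2.98e-07 by edgeR) lay just past the fold threshold, and it was 0.90 to 1.08 when 1 library was left out. Without untreated replicate 1 or without VPA replicate 3 it fell below 1, so that ANXA1 was then higher by the adjusted p but not called up-regulated.

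S100A11, the partner that binds the tail of ANXA1, is known for roles in plasma membrane repair and growth control. It lies on chromosome 1 from 152032506 to 152037004. It had 509.95, 499 and 482 normalized counts in untreated libraries against 1237, 1182 and 1245.5 in VPA-treated ones. The spread within a group was small beside this gap. The means of 497 ± 13.8 and 1221 ± 34.5 (SD, n = 3 each) gave a log2 fold change of 1.30 with SE 0.054, and the adjusted p of 1.11e-14 by edgeR was the smallest among the members. ANXA3 and S100A11 also passed a test of changes larger than 2-fold (glmTreat), which S100A4 and ANXA1 did not.

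S100A4, which binds non-muscle myosin and is known from metastatic and migrating cells, rose from few counts. It lies on chromosome 1 from 153543621 to 153545806. Its normalized counts were 14.5, 8.37 and 10.5 in untreated and 24.9, 33.7 and 24.9 in VPA-treated libraries. The groups did not overlap, but only 119 raw counts lay behind the gene over the 6 libraries. The log2 fold change was 1.31 with the widest error of the tested members, SE 0.28, at an adjusted p of 3.15e-04 by edgeR. The gene span overlaps that of S100A5 on the same strand, and S100A5 is listed at 0.

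**Figure D1:**
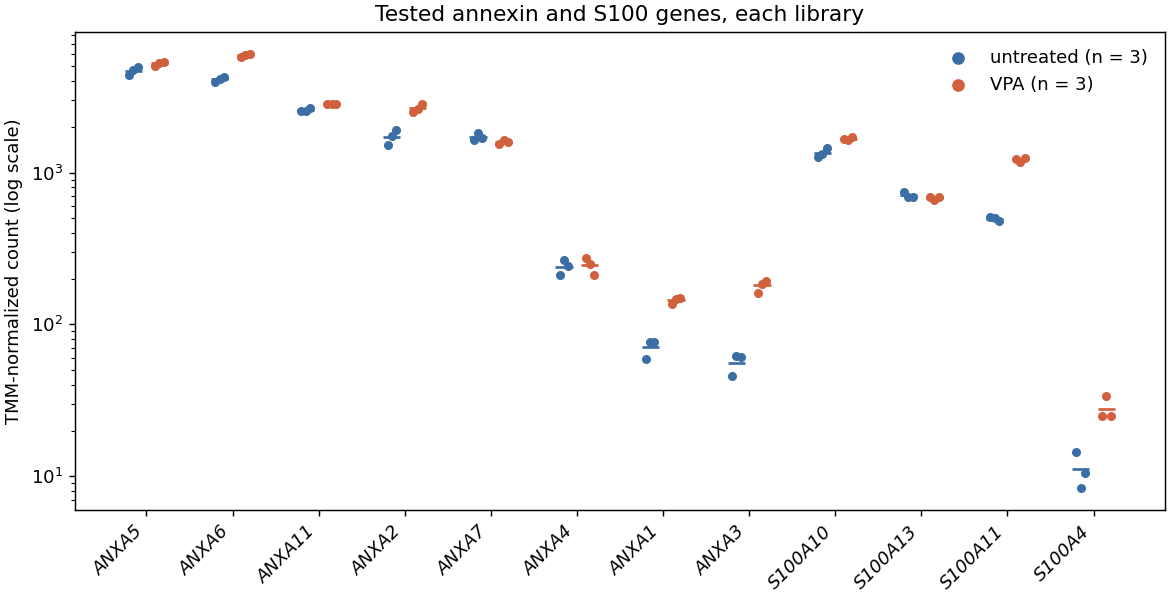
TMM-normalized counts (vertical axis, log scale) of the 12 tested members in each library, annexins at the left and S100 genes at the right. Points are libraries and bars are group means (n = 3 each). The treated points of ANXA1, ANXA3, S100A11 and S100A4 sit clear above the untreated ones, while those of ANXA4 and S100A13 overlap.

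ANXA2 and S100A10 form the best described annexin and S100 complex, in which S100A10 joins ANXA2 molecules at the membrane and binds plasminogen at the cell surface. ANXA2 had 1523, 1749.7 and 1897 normalized counts in untreated libraries and 2516, 2634 and 2828 in VPA-treated libraries. S100A10, which cannot bind calcium in its EF-hands, had 1263, 1326 and 1443 in untreated and 1662, 1630.3 and 1706.5 in treated libraries. Both genes rose without overlap between the groups. The processed copy ANXA2P2 had 6 to 20 raw counts a library, and reads that match it and ANXA2 equally well are set aside in the counting. The log2 fold change was 0.63 (SE 0.067, adjusted p of 1.01e-06) for ANXA2 and 0.31 (SE 0.050, adjusted p of 1.52e-05) for S100A10, both by edgeR.

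The ratio of raw counts within a library is free of the scaling between libraries, and it was taken for the 2 known complexes. The ANXA2 count over the S100A10 count was 1.21, 1.32 and 1.31 in untreated and 1.51, 1.62 and 1.66 in VPA-treated libraries. Every treated library thus had a higher share of ANXA2 to its partner than every untreated one, with means of 1.28 ± 0.064 and 1.60 ± 0.074 (SD, n = 3 each, two-sided exact permutation test, p = 0.1, which is the smallest value that 3 libraries against 3 allow, and 0.2 after Benjamini-Hochberg adjustment over the 2 ratios). The ANXA1 count over the S100A11 count was 0.116, 0.153 and 0.159 in untreated and 0.110, 0.124 and 0.120 in treated libraries. These values overlapped (two-sided exact permutation test, p = 0.3 and 0.3 adjusted, n = 3 each), and 1 untreated library made the overlap, since the other two lay above all treated ones. With 3 libraries against 3 this does not show that the ratio stayed the same.

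ANXA5 and ANXA6 were the most counted annexins. ANXA5, which binds phosphatidylserine and is the usual probe for dying cells, had 4375, 4733 and 4942 normalized counts in untreated and 5053, 5304 and 5346 in VPA-treated libraries. ANXA6, which links membranes to actin and to cholesterol transport, had 3972, 4129 and 4280.2 against 5804, 5923 and 6042. In both genes the treated libraries lay above the untreated ones, narrowly for ANXA5 and widely for ANXA6. The log2 fold change was 0.16 (SE 0.045, adjusted p of 0.0038) for ANXA5 and 0.52 (SE 0.041, adjusted p of 3.45e-10) for ANXA6, by edgeR. The value for ANXA5 was 0.29 with library totals. Per length of the canonical transcript ANXA5 stood highest among the annexins in untreated cells, at 2859 normalized counts per kilobase against 1428.5 for ANXA6 and 1109 for ANXA2.

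The remaining annexins moved little. ANXA11, which tethers RNA granules to lysosomes, had 2535, 2549 and 2658 normalized counts in untreated and 2836, 2821 and 2812 in treated libraries, a log2 difference of 0.13 (SE 0.040, adjusted p of 0.0079 by edgeR) that was 0.26 with library totals. DESeq2 did not call it, at an adjusted p of 0.064. ANXA7, a membrane fusion annexin, was the one member that was lower, at 1648, 1808 and 1696 against 1540.5, 1629 and 1593. Its groups did not overlap, yet the log2 fold change of -0.11 (SE 0.047, adjusted p of 0.041 by edgeR) rested on the scaling and on single libraries. With library totals it was 0.018 (adjusted p of 0.747). The call was lost without untreated replicate 2, without VPA replicate 1 and without VPA replicate 3 (log2 fold changes of -0.082, -0.093 and -0.12, adjusted p of 0.185, 0.123 and 0.079 by edgeR).

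ANXA4, an epithelial annexin that slows membrane dynamics, and S100A13, which takes part in the release of growth factors without a signal peptide, did not pass the test. ANXA4 had 209.98, 264 and 241 normalized counts in untreated and 273, 250.2 and 211 in VPA-treated libraries. S100A13 had 746, 695.5 and 695.4 against 690.3, 664 and 695.4. The groups overlapped in both genes, with log2 fold changes of 0.040 (SE 0.10, adjusted p of 0.749 by edgeR) for ANXA4 and -0.060 (SE 0.056, adjusted p of 0.360 by edgeR) for S100A13. S100A13 overlaps CHTOP and S100A1 on the other strand, and the strand setting of the counting is not given in the sources used here.

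Over the 12 tested members the libraries of the groups did not overlap in 10, with 9 higher and 1 lower in treated cells, against 34.8% and 31.0% of all tested genes. Summed over all annexins the normalized counts were 14371 to 15857 in untreated and 18326 to 19180 in VPA-treated libraries. Summed over all S100 genes they were 2541 to 2648 and 3549 to 3699. ANXA5, ANXA6, ANXA11, ANXA2 and ANXA7 carried most of the annexin sum, and S100A10, S100A11 and S100A13 most of the S100 sum.

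**Figure D2:**
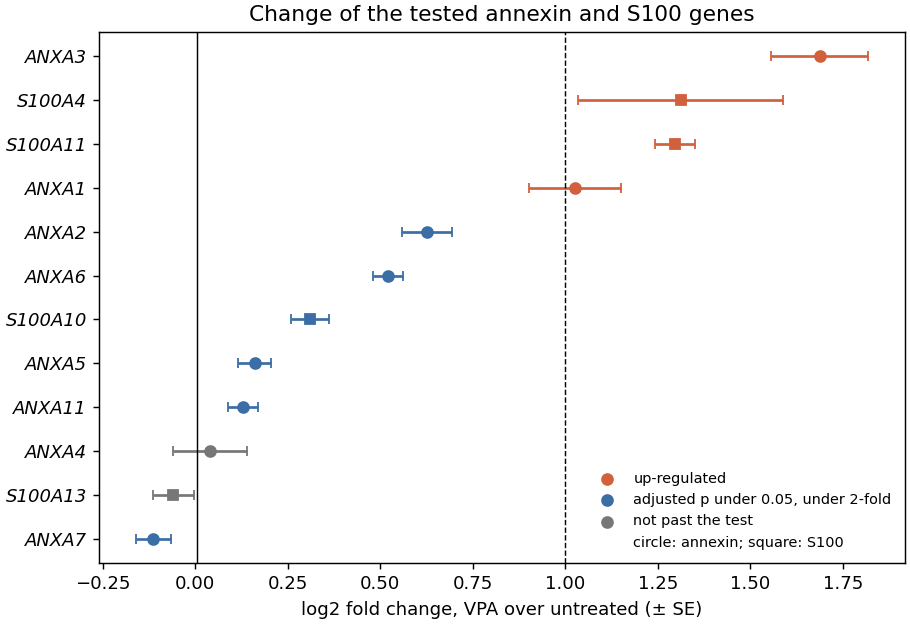
Log2 fold change of VPA-treated over untreated cells for the 12 tested members (horizontal axis, bars are SE), from ANXA3 at 1.69 down to ANXA7 at -0.11. The solid line marks the median of all tested genes, 0.0058, and the dashed line the fold threshold of 1. Colours give the outcome of the test, circles are annexins and squares are S100 genes.

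The 10 members with too few counts for the filter included some whose few counts lay mainly in treated cells. S100B, the S100 protein of astrocytes and Schwann cells, had raw counts of 1, 0 and 1 in untreated and 10, 8 and 7 in VPA-treated libraries. Its 25 counts after treatment against 2 before gave a ratio of 11.5 after scaling, with a 95% interval of 2.87 to 100.1 (exact, conditional on the total, for counting error only). When the filter was dropped S100B was called up-regulated at an adjusted p of 1.19e-04 by edgeR, and DESeq2 gave an adjusted p of 0.0139.

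S100A1, the isoform of heart and skeletal muscle that modulates ryanodine receptors, had 3, 5 and 5 raw counts in untreated and 14, 17 and 7 in treated libraries, a ratio of 2.69 (95% interval of 1.40 to 5.50). S100A2, found in basal epithelial cells, had 2, 3 and 4 against 7, 12 and 7, a ratio of 2.66 (95% interval of 1.21 to 6.44). Neither gene overlapped between the groups. Without the filter both were called by edgeR (adjusted p of 0.0079 and 0.039) and neither by DESeq2 (adjusted p of 0.082 and 0.159), so that the call depended on the tool. Without the filter 7 members were up-regulated, the 4 named first and these 3, while 9.56% of 26353 genes were. S100A1 lies inside the span of S100A13, which had 4187 counts on the other strand.

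The other low members gave no call under any setting. S100Z had 0, 0 and 1 raw counts in untreated and 3, 2 and 2 in treated libraries, without overlap. Its ratio was 6.44 with a 95% interval of 0.827 to 290.02. S100A16 had 5, 4 and 4 against 6, 1 and 3, and ANXA9, an annexin with degenerate calcium sites, had 2, 3 and 4 against 5, 0 and 4. S100A14 had 1 and 3 counts in all, S100A3 had 0 and 3, all in 1 treated library, and S100P had 1 and 0. ANXA8 had 5 and 3 counts, and its near-identical copy ANXA8L1, which is no member by its symbol, is listed at 0. Reads that match both copies equally are set aside in the counting, so the count of ANXA8 is uncertain.

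**Figure D3:**
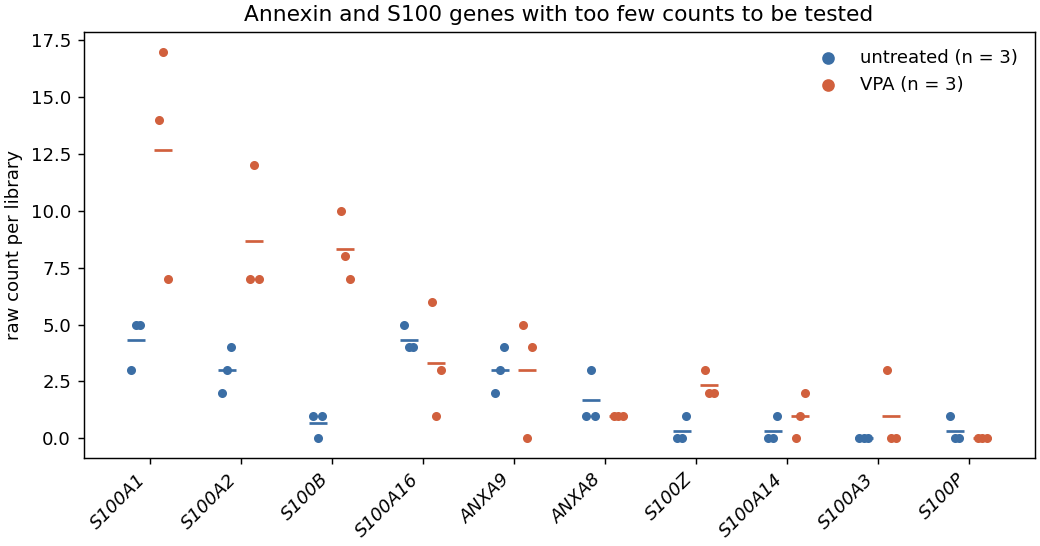
Raw counts (vertical axis) of the 10 members that had counts but were not tested, in each library, with bars at the group means (n = 3 each). S100B, S100A1 and S100A2 lie higher in all treated libraries, at 7 to 17 counts against 0 to 5. S100Z does too, at 2 to 3 counts against 0 to 1, and the others overlap, at 0 to 6.

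The 8 members listed at 0 in every library were ANXA10 and ANXA13, annexins of stomach and intestine, and S100A5, S100A6, S100A7, S100A8, S100A9 and S100A12. S100A8, S100A9 and S100A12 are the calgranulins of neutrophils and monocytes, S100A7 is psoriasin of keratinocytes, S100A5 is known from olfactory neurons, and S100A6, calcyclin, is widely expressed in epithelia and fibroblasts. A count of 0 among the 112364165 counts of all libraries allows up to 3 counts, or 0.0267 CPM (counting error only). This limit is for the 6 libraries pooled and is higher for either condition alone. None of these 8 genes had a count in either condition. S100A6 overlaps LOC124904423 on the other strand. Depending on the strand setting, which is not given, reads in that overlap may have been set aside as ambiguous.

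Along chromosome 1 the 15 S100 genes of the cluster spanned 1651 kb. S100A10 and S100A11 at one end, S100A4 in the middle and S100A13 near the other end were tested, and 5 more had some counts. The run of S100A9, S100A12, S100A8, S100A7, S100A6 and S100A5 between them was at 0 in both conditions. Up-regulated and uncalled genes stood next to each other, since S100A11 had a log2 fold change of 1.30 and its neighbour S100A10 of 0.31. Of 9 other genes in and beside the cluster 8 were tested, and 0 were up-regulated and 0 down-regulated, against 12.0% and 0.503% of all tested genes. At the adjusted p alone 2 were higher (SLC27A3 and THEM4) and 5 lower, against 32.9% and 30.0%. The median log2 fold change was -0.17. CHTOP, an RNA export factor that overlaps S100A13, and ILF2, a double-stranded RNA binding protein, had log2 fold changes of -0.28 and -0.25 (adjusted p of 3.92e-06 and 4.09e-05 by edgeR). SLC27A3, a fatty acid transport protein, had 0.43 (adjusted p of 6.11e-04 by edgeR), and NPR1, a natriuretic peptide receptor named after its values were seen, was not tested, with raw counts of 1, 1 and 1 in untreated and 8, 7 and 11 in treated libraries. With library totals 2 were lower in place of 5.

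**Figure D4:**
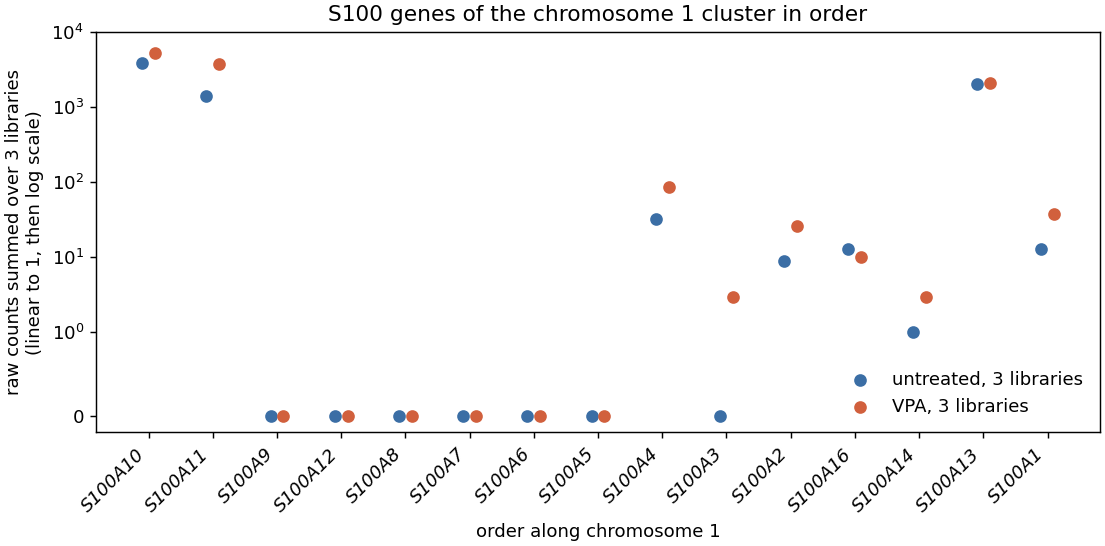
Raw counts summed over the 3 libraries of each condition (vertical axis, linear to 1 and on a log scale above) for the 15 S100 genes of chromosome 1 in their order along the chromosome. S100A11 rises from 1430 to 3822 counts and S100A4 from 32 to 87, while S100A13 lies at 2049 and 2138 and 6 neighbouring genes are at 0 in both conditions.

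The sequence before the start was compared between tested members and those with few or no counts. In the 250 bases before the start, RefSeq sequence was matched for 27 of the 30 members. The ratio of CG pairs observed to those that the C and G content would give was above 0.6, a level often used to mark CpG islands, in 9 of 12 tested members, in 0 of 8 members with counts below the filter and in 1 of 7 members at 0. Over all genes the same shares were 79.6% for tested genes, 31.2% for genes with counts below the filter and 15.9% for genes listed at 0, which include every gene of chromosomes X and Y. In the members as in genes at large the share was highest for tested genes. The median ratio was 0.756 in the tested members, 0.192 in those with few counts and 0.124 in those at 0. S100A6, at 0.803, was the exception among the members at 0. ANXA11 (0.576), S100A4 (0.284) and ANXA1 (0.00) were the tested members below 0.6, and the last 2 are among the 4 that were up-regulated.

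The letters TATAAA stood on either strand of this window in 10 of the 27 members, against 11.1% of all promoters. Among them were ANXA1, ANXA2, ANXA11 and S100A4, 4 of the 12 tested members, against 5.23% of promoters of tested genes. GGGCGG, the GC box, was found on either strand in 11 of 27, against 42.3% of all promoters. It was found in 8 of the 12 tested members, near the 66.8% of promoters of tested genes. TGANTCA, the AP-1 motif, which reads the same on both strands, was found in 4 of 27 (ANXA2, S100A12, S100A2 and S100A3), against 6.60% of all promoters. None of the 3 motifs contains another. Such matches are a description of the sequence and say nothing of binding.

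**Figure D5:**
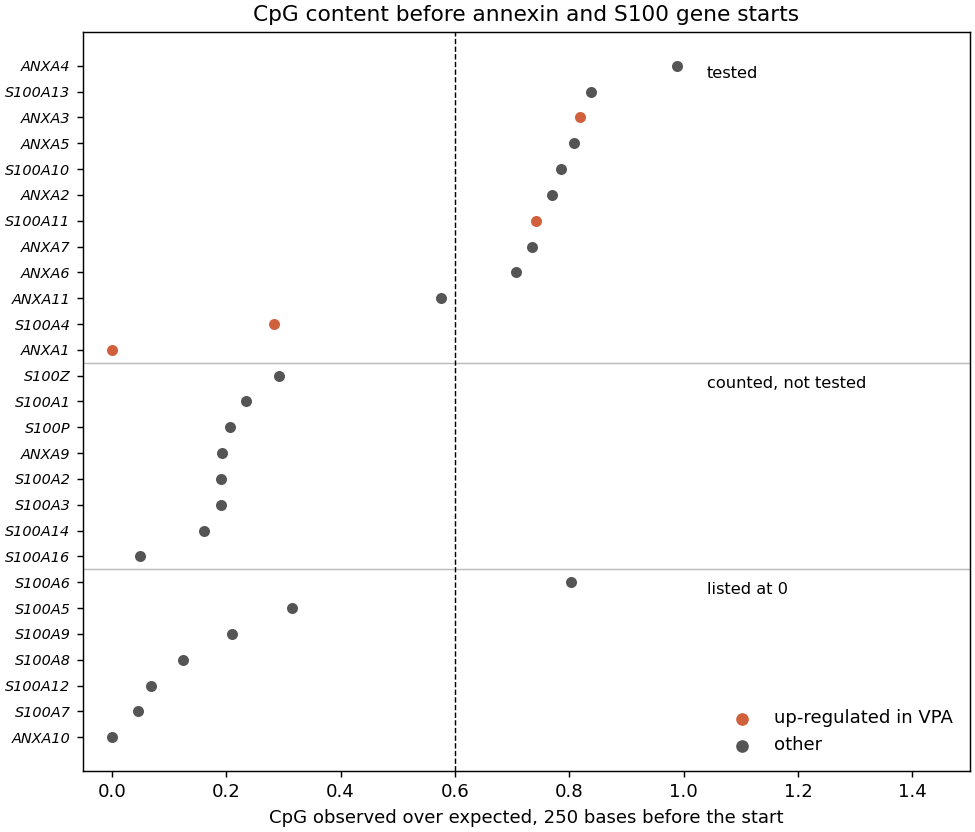
Ratio of observed to expected CG pairs in the 250 bases before the start (horizontal axis) for the 27 members with a RefSeq sequence, grouped by whether the gene was listed at 0, counted but not tested, or tested. The dashed line is at 0.6, and 9 of the 12 tested members lie to its right. Of the 4 up-regulated members, ANXA3 and S100A11 lie to the right of it and ANXA1 and S100A4 to its left.

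Genes whose products bind annexins or S100 proteins, or serve as their receptors, included higher and lower ones, as all tested genes did. Of 30 such genes 23 were tested, and 6 were up-regulated and 0 down-regulated, against 12.0% and 0.503% of all tested genes. At the adjusted p alone 9 were higher and 8 lower, against 32.9% and 30.0%. The median log2 fold change was -0.021. MYOF and DYSF of the ferlin family, which take part in membrane repair as annexins do, were among the up-regulated. MYOF (myoferlin) had raw counts of 34, 36 and 35 before and 263, 244 and 283 after VPA, and its log2 fold change was 2.79 (SE 0.12, adjusted p of 3.38e-14 by edgeR). DYSF (dysferlin) had 23, 21 and 20 against 93, 87 and 83, and its log2 fold change was 1.91 (SE 0.17). RYR1, also up-regulated and named after its values were seen, had 9, 2 and 4 against 27, 30 and 18. It passed the filter through its treated libraries.

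AHNAK2, a giant scaffold protein of the cell cortex, and PLAU, the urokinase that activates plasminogen, had log2 fold changes of 1.61 (SE 0.087) and 2.14 (SE 0.20). AHNAK, the scaffold that the ANXA2 and S100A10 complex recruits to the membrane, was named after its values were seen. It had raw counts of 1321, 1380 and 1454 in untreated and 2972, 2931 and 3035 in treated libraries, a log2 fold change of 0.98 (SE 0.046), just short of the fold threshold. It was past the threshold with library totals (1.12) and with upper quartile scaling (1.05), which gave 7 up-regulated genes on this list in place of 6. PLG, which encodes plasminogen, and TLR4, FPR1 and FPR3, receptors of innate immunity, are listed at 0 in all libraries.

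The 4 lower genes with the smallest adjusted p on this list were EZR, PDCD6, PEF1 and TSG101. PDCD6 (ALG-2), a calcium sensor that binds ANXA7 and ANXA11, had a log2 fold change of -0.38 (SE 0.058) and its relative PEF1 of -0.29 (SE 0.051), with adjusted p-values of 6.49e-06 and 6.15e-05 by edgeR. EZR, ezrin, which S100P activates, had -0.32 (SE 0.041), and TSG101 of the ESCRT membrane machinery had -0.31 (SE 0.065). These decreases were under 2-fold. SRI (sorcin), which also binds ANXA7 and ANXA11, was lower at -0.17 (SE 0.051, adjusted p of 0.0074 by edgeR), but not with library totals (-0.034, adjusted p of 0.578), and was named after its values were seen. With library totals PDCD6, PEF1, EZR and TSG101 were still lower, at -0.25, -0.16, -0.18 and -0.18, while the count of lower genes on this list was 4 in place of 8 and that of higher genes 12 in place of 9.

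Other EF-hand calcium sensors were read beside the S100 genes. Of 34 such genes 23 were tested, and 9 were up-regulated and 0 down-regulated, against 12.0% and 0.503% of all tested genes. At the adjusted p alone 15 were higher and 2 lower, against 32.9% and 30.0%, with a median log2 fold change of 0.38. HPCAL4, a neuronal calcium sensor, had the smallest adjusted p of these at 2.00e-15 by edgeR, with 166 ± 6.99 and 650.1 ± 27.4 normalized counts (SD, n = 3 each). NCALD (neurocalcin), CABP1 and VSNL1 (visinin-like) had log2 fold changes of 1.71, 1.61 and 2.34. VSNL1 had 14, 5 and 14 raw counts in untreated and 60, 62 and 61 in treated libraries, and passed the filter through the treated ones. So did PVALB, HPCA, KCNIP1 and CABP7, also up-regulated, so the count of 9 includes genes let in by their treated level. With library totals 10 sensors were up-regulated, 19 higher and 1 lower. The lower genes were PPP3R1, the regulatory subunit of calcineurin, at -0.51 and CALM2, a calmodulin gene, at -0.22, of which CALM2 did not pass the test with library totals (-0.084, adjusted p of 0.061 by edgeR). Of the 7 fused S100-type genes, which join an S100 domain to long repeats in skin proteins such as filaggrin, 5 were at 0. The 1 tested was TCHH (trichohyalin), with 5, 2 and 7 raw counts in untreated and 12, 21 and 13 in treated libraries. Its log2 fold change was 1.57 (SE 0.42, adjusted p of 0.0027 by edgeR), and it passed the filter through its treated libraries.

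Markers of cell types known for particular S100 genes were read beside them. The glial markers GFAP, AQP4, MBP and ALDH1L1 were tested and all 4 were up-regulated, against 12.0% of all tested genes. MBP (log2 fold change of 1.01) fell below the fold threshold with DESeq2 size factors (0.99), which left 3. AQP4 led them with raw counts of 6, 10 and 8 against 79, 86 and 91. AQP4 and ALDH1L1 (7, 9 and 13 against 24, 30 and 28) passed the filter through their treated libraries. The summed level of the glial list was 95.2 to 106 normalized counts in untreated and 256 to 300.3 in treated libraries. The counts of S100B moved with these markers, and the part of such cells in the result was not tested. The myeloid list (PTPRC, LYZ, CD14, ITGAM, CSF1R and MPO) had 0 of 6 tested, a summed level of 8.28 to 14.6 in untreated and 13.4 to 23.9 in treated libraries, and MPO at 0. The keratinocyte list had KRT5, KRT14, KRT1 and IVL at 0 in all libraries, LORICRIN at 1 count, and KRT10 tested (log2 fold change of -0.25, adjusted p of 0.033 by edgeR, not passed with library totals), with a summed level of 346 to 484 and 318 to 363.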

How the data were processed

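The authors filtered reads (SOAPnuke), mapped them to hg38 (STAR) and counted them by gene (htseq-count), and deposited the raw counts of each library, not normalized. The gene annotation and strand setting are not given in the sources used here. Summary lines that are no gene were not used (6.80% to 7.69% outside genes, 1.97% to 2.10% ambiguous, 2.81% to 2.92% not unique).

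The quasi-likelihood test of edgeR 4.0.16 (R 4.3.3) was fitted on treatment, robustly, with TMM scaling, filterByExpr at a count minimum of 10 and a prior count of 0.125, and p-values were adjusted by Benjamini-Hochberg over 15298 genes. DESeq2 1.42.0, other scalings and filters, a replicate block and leaving out each library were alternatives. The test was tested on simulated data first. The SE is the log2 fold change over the root of F. Libraries of a group differed beyond sampling noise (chi-square of 1.62 to 4.80 per gene). Transcript lengths are from GENCODE 44. Coordinates are RefSeq's on GRCh38.p14, matched by symbol. All members were named, and of other lists at most 4 genes per direction by smallest adjusted p, among the called genes or, where none was called, those past the adjusted p alone. AHNAK, SRI, NPR1, RYR1, PVALB, HPCA, KCNIP1 and CABP7 were named besides. The members and lists were chosen with earlier results of these data known. Protein sequences were not used here, and a marker gene is not reported here.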

Additional observations from a re-analysis of the deposited data

How the results depend on the processing

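The alternatives were DESeq2, other scalings (DESeq2 size factors, library totals, upper quartile), other filters, glmTreat, another prior count (2), a stricter FDR (0.01), a replicate block and leaving out each library. The 4 up-regulated members became 7 without a filter, 2 with glmTreat, 3 with at least 10 counts in every library (without S100A4) and 5 with DESeq2 (with S100B). The 1 lower member, ANXA7, became 0 with library totals, upper quartile, at least 10 counts in every library and an FDR of 0.01, and ranged from 0 to 1 with a library left out. ANXA7 was at 0.018 with library totals. S100A13 was at 0.071 with library totals and 0.0054 with upper quartile, within its error. ANXA4 ranged from -0.050 to 0.13 with a library left out, and was -0.046 without VPA replicate 1, none past the test. Leaving out a library gave 4 to 5 up-regulated members, and S100A1 was among them in 4 of these fits. Of the values of single members under an alternative, 156 kept direction and side of the adjusted p threshold, 6 lost it (ANXA7 in 5, ANXA11 with DESeq2) and 5 changed sign. ANXA1 kept its adjusted p but fell below the fold threshold without untreated replicate 1 (0.90) and without VPA replicate 3 (0.997). The replicate block gave 4 up-regulated, 9 higher and 1 lower member, and changed no call. Same-numbered libraries had deviations from their group means correlated at 0.126, 0.018 and 0.0708. Differently numbered libraries had -0.098 to 0.0313, so these small values do not settle whether the numbers pair the libraries. S100A4 could not be fitted with at least 10 counts in every library. Few counts limit S100A4 and all untested members.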

Other observations

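Copines are calcium-dependent membrane binders that are not related to annexins in sequence, and they were read as a separate list. Of 9 genes 7 were tested, and 2 were up-regulated and 0 down-regulated, against 12.0% and 0.503% of all tested genes. At the adjusted p alone 3 were higher and 2 lower, against 32.9% and 30.0%. The median log2 fold change was 0.050. CPNE4 had raw counts of 0, 1 and 0 in untreated and 26, 20 and 22 in VPA-treated libraries, and CPNE5 had 2, 4 and 2 against 21, 12 and 30. Both passed the filter through their treated libraries. CPNE3 and CPNE1, which had far more counts, had log2 fold changes of -0.30 and -0.11, and CPNE1 was at 0.023 with library totals, where it did not pass the test. The counts of the copines summed to 5687 to 5858 normalized counts in untreated and 5158 to 5331 in treated libraries.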
